A study of Mus musculus with 6 samples.

Results

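The enzymes of central carbon metabolism were described as a set of 54 genes, taken by symbol from the glycolysis, pentose phosphate and citric acid cycle routes and the steps that join them, out of 21456 gene symbols with values. The set holds 17 glycolysis genes, 4 genes of the PFKFB enzymes that set the level of the glycolytic activator fructose 2,6-bisphosphate, 4 genes of the pyruvate dehydrogenase complex, 4 of its kinases, 7 pentose phosphate genes, 12 citric acid cycle genes and 6 genes of cytosolic or anaplerotic steps. Of these, 53 were among the 12532 genes that averaged 1 RPKM or more (reads scaled to transcript length and library size) and were tested. Pfkfb1 was below that mean.

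Messenger RNA was sequenced from the ureteric epithelium of developing kidneys of CFW mice at E16.5 (embryonic day), the branching tree that forms the collecting ducts. Tip cells were labelled Wnt11RFP+;Hoxb7GFP+, positive for both reporters, and stalk cells Wnt11RFP-;Hoxb7GFP+, positive for only the green one, with 3 libraries in each group. The groups are thus defined by fluorescence of reporters named for Wnt11 and Hoxb7, and any cell type in which a reporter is active can enter its group. The labels do not say whether animals were pooled or whether the libraries came from separate animals, so a p-value here reflects the spread among libraries, possibly a technical one. The single comparison of the design is tip against stalk.

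Glycolysis splits glucose into pyruvate in the cytosol, and lactate dehydrogenase can turn that pyruvate into lactate. The pentose phosphate pathway branches off at glucose 6-phosphate and supplies NADPH and ribose phosphate for nucleotides. Pyruvate dehydrogenase carries pyruvate into the mitochondrial citric acid cycle as acetyl-CoA, and the pyruvate dehydrogenase kinases switch that complex off by phosphorylation. Many of these steps have several isozymes encoded by separate genes, and transport-active duct cells such as intercalated cells are known for many mitochondria.

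Upstream stretches of 5 genes are shown. Ldha, Pgk1 and Pgam1 were picked from the 13 glycolysis genes that varied together between the libraries. Hk2 had the widest log2 difference toward tip among the tested enzymes, and the citric acid cycle gene Cs was picked for contrast. Each stretch is the 250 bases before a RefSeq start site on build GRCm38.p6, written 5′ to 3′ on the gene's own strand. Capitals mark matches to ACGTG or GCGTG, the core of the hypoxia response element, on either strand.
Ldha, chr7:46845554-46845803, plus strand: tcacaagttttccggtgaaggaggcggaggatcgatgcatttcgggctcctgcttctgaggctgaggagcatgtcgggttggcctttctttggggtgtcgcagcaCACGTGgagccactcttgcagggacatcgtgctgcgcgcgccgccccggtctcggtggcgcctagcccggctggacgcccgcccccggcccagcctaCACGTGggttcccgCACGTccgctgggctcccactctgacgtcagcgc
Pgk1, chrX:106186850-106187099, plus strand: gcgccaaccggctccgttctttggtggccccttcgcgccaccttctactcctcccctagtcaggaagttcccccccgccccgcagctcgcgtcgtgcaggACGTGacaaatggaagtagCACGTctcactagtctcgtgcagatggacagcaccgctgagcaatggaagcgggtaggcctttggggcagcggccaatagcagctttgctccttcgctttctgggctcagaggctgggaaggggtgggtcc
Pgam1, chr19:41911621-41911870, plus strand: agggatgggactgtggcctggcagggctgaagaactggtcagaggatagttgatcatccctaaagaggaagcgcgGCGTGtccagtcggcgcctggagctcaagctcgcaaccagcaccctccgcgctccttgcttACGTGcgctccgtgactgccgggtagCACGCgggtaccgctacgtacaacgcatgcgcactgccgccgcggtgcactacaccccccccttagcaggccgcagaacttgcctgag
Hk2, chr6:82774455-82774704, minus strand: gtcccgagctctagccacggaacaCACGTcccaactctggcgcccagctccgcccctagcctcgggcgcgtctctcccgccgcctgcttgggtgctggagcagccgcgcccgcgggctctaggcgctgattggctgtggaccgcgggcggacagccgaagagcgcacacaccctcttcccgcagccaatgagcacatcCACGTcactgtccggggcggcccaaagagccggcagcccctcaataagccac
Cs, chr10:128337477-128337726, plus strand: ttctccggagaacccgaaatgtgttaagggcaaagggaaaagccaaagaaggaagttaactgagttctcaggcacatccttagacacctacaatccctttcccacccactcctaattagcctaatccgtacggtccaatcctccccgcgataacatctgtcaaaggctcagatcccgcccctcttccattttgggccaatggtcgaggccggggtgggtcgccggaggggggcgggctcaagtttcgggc
Ldha held 5 overlapping matches in this stretch, counting CACGTG as a match on each strand, Pgk1 held 2, Pgam1 held 3 and Hk2 held 2, while Cs held 0. The 5 genes were picked, so these counts do not compare the routes. In windows of 300 bases, from 250 before to 50 after the start site, 43.8% of all 32851 windows had at least 1 such match. At least 1 window had a match in 13 of the 17 glycolysis genes (76.5%), in 6 of the 7 pentose phosphate genes and in 6 of the 11 citric acid cycle genes with a window (54.5%). A gene with several windows can match in any of them, so these gene shares are not comparable with the 43.8% of single windows. Gpi1 and Tpi1, also of the glycolysis genes that varied together, had 0 matches, while the cycle genes Fh1 and Idh2 had 2 and 1. Counted by window, the shares were 71.4% of 28 glycolysis windows and 68.8% of 16 citric acid cycle windows. Ogdh alone has 6 of those 16 windows, all with a match, and the other cycle genes had a match in 5 of 10. The palindrome CACGTG, the E box, was in 7.15% of all windows and 7.14% of the glycolysis windows. It was in 3 of the 16 citric acid cycle windows (18.8%), all of Ogdh, and in 0 of the 8 pentose phosphate windows. TNAAGGTCA, an element of estrogen-related receptors, was in 1.28% of all windows, in 1 of the 28 glycolysis windows and in 0 of the 16 citric acid cycle windows. These matches describe letters only.

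Wnt11 was at 693 ± 255 RPKM in tip against 11.7 ± 11.6 RPKM in stalk (SD, n = 3 each), and Hoxb7 at 75.8 ± 22.0 and 53.7 ± 14.0 RPKM. The collecting duct marker lists were called higher in stalk for 8 of 8 intercalated cell genes, whose summed level was 24.4 to 29.1 RPKM in tip and 346 to 608 RPKM in stalk, and for 7 of 7 principal cell genes, summed at 28.7 to 50.4 and 855 to 1224 RPKM. Of the urothelial genes 5 of 6 tested were higher in stalk, with sums of 2.76 to 2.87 RPKM in tip and 205 to 475 RPKM in stalk. Upk1b, Upk2, Upk3a, Krt5 and Psca stood at 0 in some library. The endothelial genes tested were higher in stalk in 7 of 7 cases, with sums of 5.43 to 8.81 and 41.8 to 69.8 RPKM, as were 7 of 10 dissociation stress genes, with sums of 2519.7 to 3743 and 3770.1 to 6198 RPKM. Stromal sums were low in both groups, at 4.68 to 9.67 RPKM in tip and 5.13 to 9.06 RPKM in stalk, with Lum at 0 in some library, and none of the 4 tested genes was called by limma at either an adjusted p or an unadjusted p under 0.05. Immune sums were 12.7 to 15.1 RPKM in tip and 12.2 to 19.5 RPKM in stalk, with 1 of 3 tested genes called toward each side. Sums over nephron progenitor genes were 3.28 to 3.94 RPKM in tip and 1.55 to 2.69 RPKM in stalk, with the 1 tested gene higher in tip. The part of these cell types in the enzyme results was not tested, and in bulk RNA fewer cells of a type and less RNA per cell cannot be told apart.

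The 53 tested enzymes leaned toward stalk, but the 3 routes did so unevenly. In stalk 30 genes were higher, in tip 8, and 15 were not called (limma, Benjamini-Hochberg adjusted p under 0.05 over all genes tested). Among all genes tested 48.6% were called, 22.5% higher in stalk and 26.1% higher in tip. The median log2 fold change, tip minus stalk on log2(RPKM + 1), was -0.40 over the enzymes and 0.05 over all genes. In 31 enzymes every stalk library lay above every tip library, and in 9 the reverse held, where 26.5% and 31.3% of all genes did so. Groups without overlap thus made up 40 of the 53 enzymes and 57.8% of all genes.

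**Figure D1:**
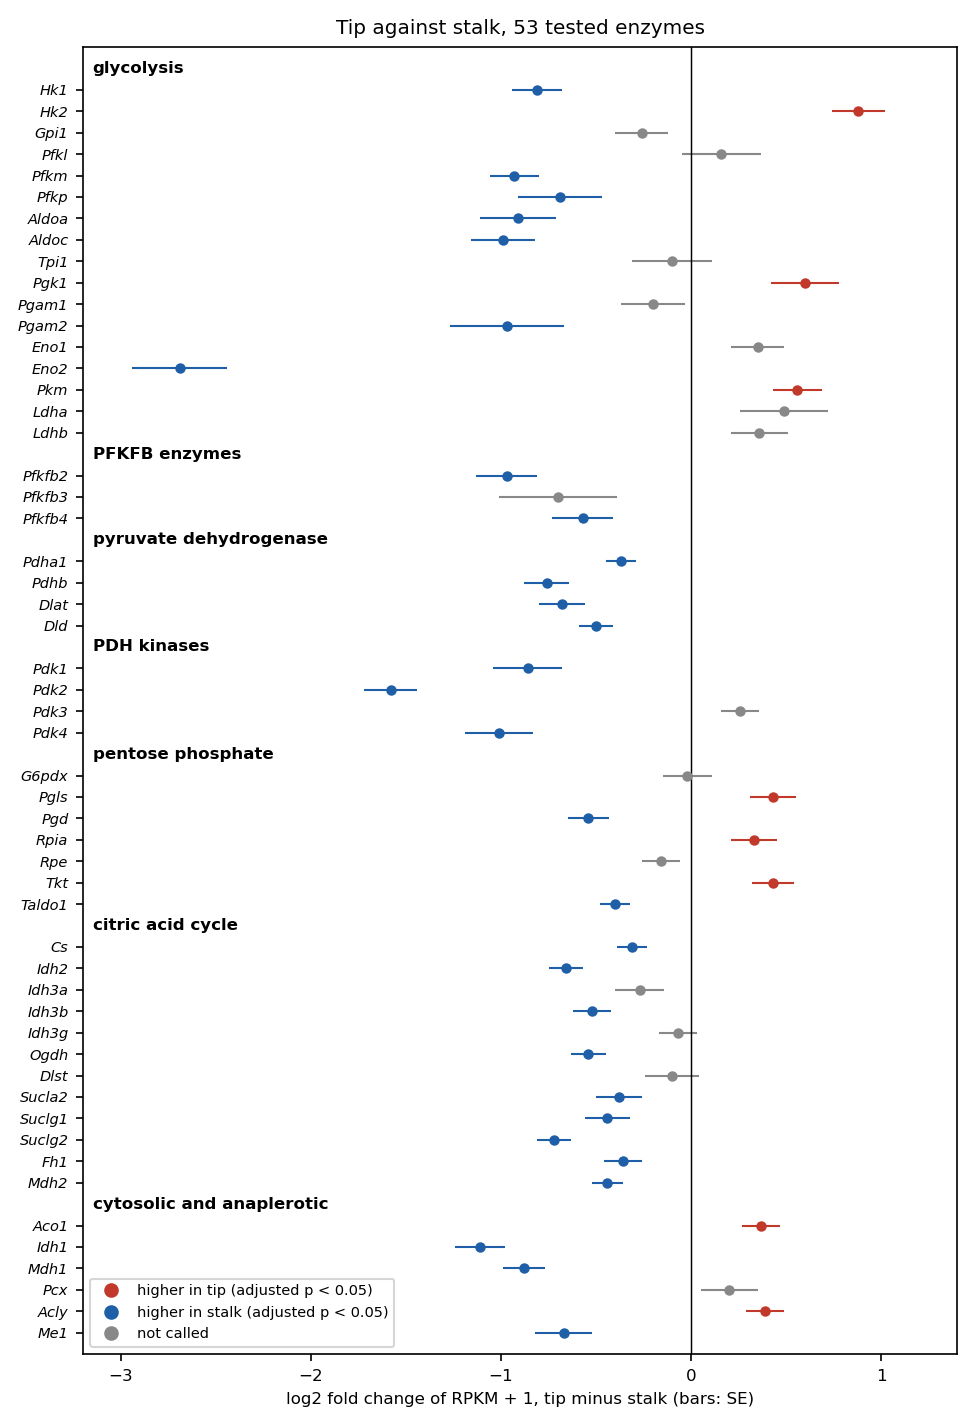
Log2 fold change of RPKM + 1, tip minus stalk, for each of the 53 tested enzymes grouped by route, with bars of 1 SE. Red points are genes higher in tip, blue points genes higher in stalk and grey points genes not called. Every point of the pyruvate dehydrogenase and citric acid cycle groups lies left of 0, while glycolysis and pentose phosphate genes lie on both sides.

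The routes differed in how their summed levels compared. Summed over the 12 citric acid cycle genes, the level was 590.3, 574 and 592 RPKM in the tip libraries and 747, 842 and 798 RPKM in the stalk libraries, a stalk to tip ratio of means of 1.36. All stalk sums lay above all tip sums. Over the 17 glycolysis genes, the sums were 1260, 1362 and 1745 RPKM in tip and 1329.9, 1819 and 1349 RPKM in stalk, a ratio of 1.03 with overlapping groups. The 7 pentose phosphate genes summed to 346, 339 and 348 RPKM in tip and 321, 378 and 359 RPKM in stalk, a ratio of 1.02, again with overlap. Of the RPKM of the 3 routes together, the citric acid cycle held 22.0% to 26.9% in tip and 27.7% to 31.8% in stalk, ranges that do not overlap. Glycolysis held 57.4% to 65.0% in tip and 53.8% to 59.8% in stalk, and the pentose phosphate genes 13.0% to 15.7% and 12.5% to 14.3%. No test was run between routes, and RPKM sums weigh abundant genes most. These sums and shares use the genes' own entries, though near-identical entries elsewhere in the genome, described below, hold much of the level of several glycolysis genes. The shares of the routes were not computed with those entries added.

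Glycolysis did not move as a block: along the pathway, isozymes and consecutive steps went to opposite sides. Of its 17 genes 3 were higher in tip (Hk2, Pgk1 and Pkm), 7 higher in stalk (Hk1, Pfkm, Pfkp, Aldoa, Aldoc, Pgam2 and Eno2) and 7 not called, and the median log2 fold change was -0.20. The share called, 58.8%, was close to the 48.6% of all genes.

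The first step, the trapping of glucose as glucose 6-phosphate, is catalysed by hexokinases. Hk1 (chromosome 10, 62268855 to 62379908, minus strand, GENCODE M21), the widely expressed form, was at 23.7, 24.7 and 29.6 RPKM in the tip libraries and 40.6, 51.5 and 46.6 RPKM in the stalk libraries. Its groups were well separated, with a log2 difference of -0.81 (SE 0.13, limma adjusted p = 0.00104). Hk2 (chromosome 6, 82725025 to 82774454, minus strand), the inducible form whose upstream stretch is printed above, went the other way, at 9.06, 7.80 and 9.20 RPKM in tip and 3.78, 4.01 and 5.02 RPKM in stalk. Every tip library exceeded every stalk library, by 0.88 on the log2 scale (SE 0.14, limma adjusted p = 0.00117). Hk2 thus made up 23.7% to 27.6% of the summed Hk1 and Hk2 level in tip and 7.23% to 9.73% in stalk, where the sum itself was higher, at 50.5 ± 5.65 against 34.7 ± 3.55 RPKM (SD, n = 3 each). Hkdc1, a hexokinase domain gene outside the set that was chosen here after its values were seen, was at 3.84 ± 0.639 RPKM in tip against 6.75 ± 0.308 RPKM in stalk.

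Phosphofructokinase, the committed step, was called in 2 of its 3 subunit genes, both higher in stalk. The liver-type subunit gene Pfkl was at 79.9 ± 19.1 RPKM in tip against 71.7 ± 18.8 RPKM in stalk and was not called (log2 fold change 0.16, SE 0.21, limma adjusted p = 0.56). Without tip replicate 3 its difference was -0.03. The muscle-type gene Pfkm (chromosome 15, 98092589 to 98132451, plus strand) was at 13.4, 13.0 and 15.5 RPKM in tip and 23.6, 30.8 and 28.2 RPKM in stalk. No tip library reached the lowest stalk library (log2 fold change -0.93, SE 0.13, limma adjusted p = 0.000537). The platelet-type gene Pfkp was low, at 2.59 ± 1.14 and 4.61 ± 0.503 RPKM (log2 fold change -0.69, limma adjusted p = 0.0316). Its call was lost without tip replicate 1 (adjusted p = 0.11) or 2 (0.0853), or stalk replicate 1 (0.0781), 2 (0.0616) or 3 (0.0605). It was also lost with no filter on low values (0.0941) and with only the highest row of each symbol, where Pfkp differed by -0.44 (0.193). Pfkm held 12.8% to 15.8% of the family's RPKM in tip and 23.9% to 29.5% in stalk, while the Pfkl share was 81.6% to 84.0% and 66.1% to 72.6%.

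**Figure D2:**
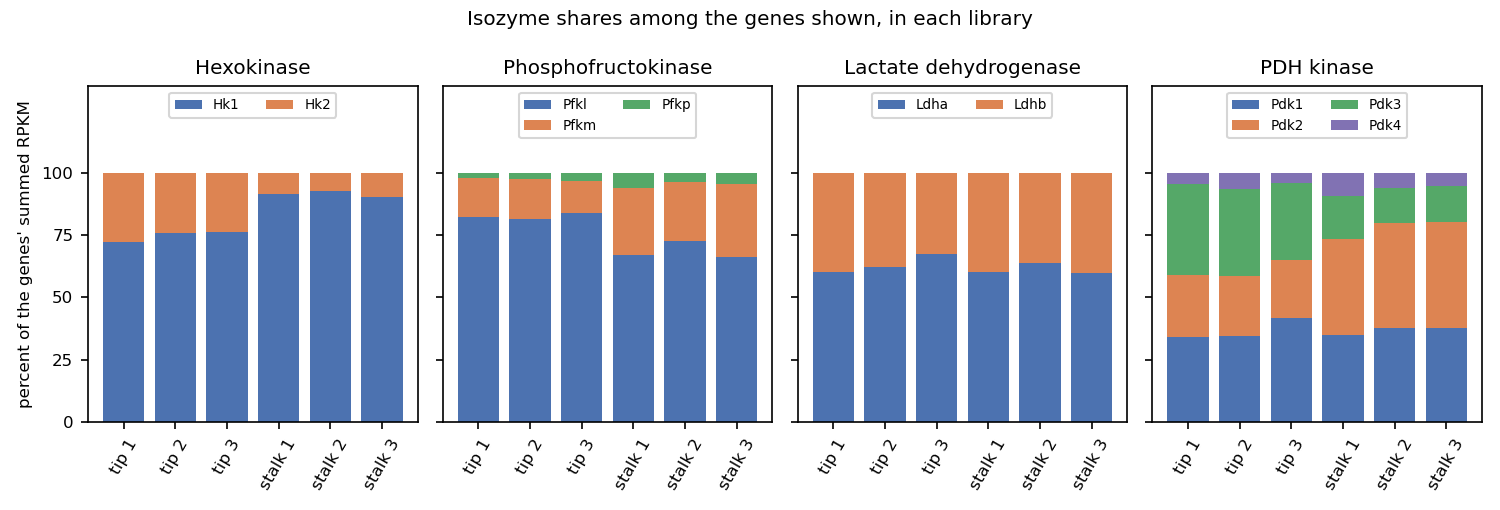
Percent of the summed RPKM of the genes shown held by each of them, for every library, in hexokinase (Hk1 and Hk2), phosphofructokinase, lactate dehydrogenase and pyruvate dehydrogenase (PDH) kinase. The Hk2 share is 23.7% to 27.6% in tip and 7.23% to 9.73% in stalk, and the Pdk2 share rises from at most 24.9% in tip to at least 38.8% in stalk, while lactate dehydrogenase shares overlap.

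At the aldolase step both genes were higher in stalk. Aldoa, the main form here with at least 98.3% of the Aldoa and Aldoc sum in every library, was at 153, 222 and 267 RPKM in tip and 381, 458 and 350.4 RPKM in stalk. The lowest stalk library lay above the highest tip library (log2 fold change -0.91, SE 0.20, limma adjusted p = 0.00568). Aldoc was at 2.57 ± 0.296 and 6.17 ± 1.39 RPKM, a difference of -0.99. The isomerase gene Gpi1, which acts before phosphofructokinase (-0.26, limma adjusted p = 0.173) and the triose phosphate isomerase gene Tpi1 (-0.10, adjusted p = 0.72) were not called, and the Tpi1 difference was 0.01 without tip replicate 1 and 0.09 without stalk replicate 2.

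The steps from phosphoglycerate kinase to pyruvate kinase, where ATP is made, held the other genes higher in tip. Pgk1 (chromosome X, 106187100 to 106203699, plus strand) was at 31.5, 29.8 and 44.0 RPKM in tip and 20.2, 28.4 and 19.9 RPKM in stalk. The groups only just separated, since stalk replicate 2 came close to tip replicate 2 (log2 fold change 0.60, SE 0.18, limma adjusted p = 0.0267). Its adjusted p was 0.0872 without tip replicate 3, 0.0658 without stalk replicate 1 and 0.092 without stalk replicate 3. Pkm (chromosome 9, 59656368 to 59679375, plus strand), which encodes the pyruvate kinase of most tissues, was at 266, 288 and 323 RPKM in tip and 174, 235 and 189 RPKM in stalk. All tip libraries were above all stalk libraries, by 0.56 on the log2 scale (SE 0.13, limma adjusted p = 0.00844). By mean RPKM it was the most abundant entry of the set in tip, and Aldoa was the most abundant in stalk.

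Enolase held the widest difference of the set. Eno2 (chromosome 6, 124760053 to 124769673, minus strand), known as neuron-specific enolase, was at 1.44, 3.67 and 2.17 RPKM in tip and 23.0, 22.8 and 16.1 RPKM in stalk. Stalk was 8.49-fold higher by the ratio of means, with a log2 difference of -2.69 (SE 0.25, limma adjusted p = 6.53e-05). The ubiquitous form Eno1 was at 55.4, 64.3 and 72.2 RPKM in tip and 50.6, 56.5 and 42.8 RPKM in stalk. Stalk replicate 2 stood above tip replicate 1, and the gene was not called (log2 fold change 0.35, limma adjusted p = 0.0618). It was called without tip replicate 1 (adjusted p = 0.0437) or stalk replicate 2 (0.0399). For phosphoglycerate mutase, the main gene Pgam1 was not called (59.6 ± 8.99 and 69.3 ± 16.2 RPKM), and the muscle form Pgam2 was higher in stalk at 1.82 ± 0.705 and 4.70 ± 2.36 RPKM (log2 fold change -0.97, limma adjusted p = 0.0279). The Pgam2 call was lost without tip replicate 1 (adjusted p = 0.0962), tip replicate 3 (0.0533) or stalk replicate 2 (0.0648).

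Lactate dehydrogenase, which interconverts pyruvate and lactate, was not called in either subunit. Ldha was at 218, 218 and 327 RPKM in tip and 147, 246 and 153 RPKM in stalk. Tip replicate 3 and stalk replicate 2 stood far above the other libraries of their groups, and stalk replicate 2 exceeded both remaining tip libraries (log2 fold change 0.49, SE 0.23, limma adjusted p = 0.106). Ldhb was at 144, 133 and 158 RPKM in tip and 97.9, 140.1 and 103 RPKM in stalk (0.36, limma adjusted p = 0.0694). Without stalk replicate 2, Ldha rose to 0.73 (adjusted p = 0.0169) and Ldhb to 0.52 (adjusted p = 0.008). The Ldha share of the pair was 60.2% to 67.4% in tip and 59.7% to 63.7% in stalk.

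The high level in tip replicate 3 and stalk replicate 2 ran through glycolysis, a pattern noticed after the values were seen. Of the 17 glycolysis genes 13 were highest in tip replicate 3 among the tip libraries and in stalk replicate 2 among the stalk libraries, against 19.3% of all genes tested. They were Hk1, Gpi1, Pfkl, Pfkm, Aldoa, Aldoc, Tpi1, Pgk1, Pgam1, Eno1, Pkm, Ldha and Ldhb. Among them were genes higher in tip, genes higher in stalk and genes not called. The same held for 3 of the 12 citric acid cycle genes and 1 of the 7 pentose phosphate genes. The median ratio of tip replicate 3 to the mean of the other tip libraries was 1.22 over the glycolysis genes, 1.04 over the citric acid cycle genes and 1.02 over all genes. For stalk replicate 2 these medians were 1.29, 1.08 and 1.03. Of 19 tested genes in a list of hypoxia regulators and targets, 10 were also highest in these libraries. The erythroid marker sum was 72.4 RPKM in tip replicate 3 and 83.8 RPKM in stalk replicate 2, and 8.86 to 23.3 RPKM in the other libraries. The proximal tubule sum was 9.64 RPKM in stalk replicate 2 and 1.55 to 3.84 RPKM in the others. Their part in the glycolysis pattern was not tested.

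**Figure D3:**
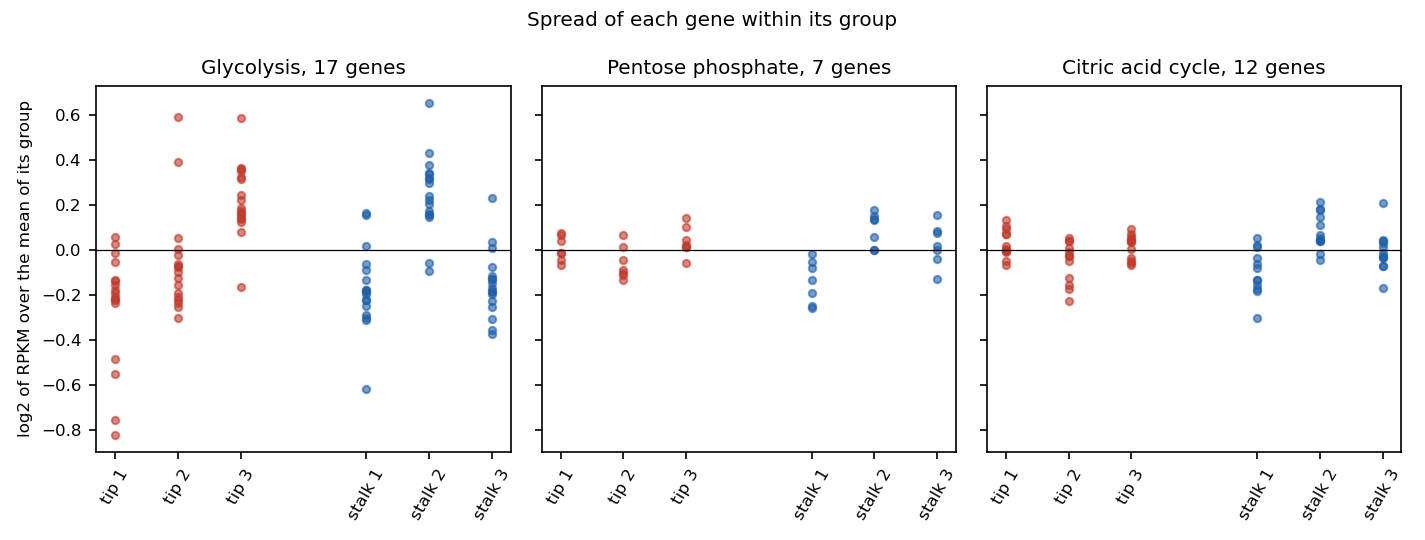
Log2 of each gene's RPKM over the mean of its own group, for the glycolysis, pentose phosphate and citric acid cycle genes, by library. Tip libraries are red and stalk libraries blue, and each point is a gene. Glycolysis points sit mostly above 0 in tip replicate 3 and stalk replicate 2, where 13 of 17 genes were highest in both, and the other routes show less of this.

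With these 2 libraries left out, a setting chosen after seeing the data, 5 glycolysis genes were higher in tip (Hk2, Pgk1, Pkm, Ldha and Ldhb) and 6 higher in stalk. Over all genes, 2188 of 12480 tested were called toward tip and 1932 toward stalk, against 3274 and 2815 of 12532 in the main fit. Ldha then differed by 0.54 (limma adjusted p = 0.0168) and Ldhb by 0.46 (adjusted p = 0.0329), with 2 libraries in each group. Both genes were among those highest in the omitted libraries, so a smaller spread within groups follows from the omission itself. Their p-values in this setting are thus no separate support. Hk1, Pfkm, Pfkp, Aldoa, Aldoc and Eno2 kept their calls.

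Several glycolysis genes have near-identical entries elsewhere in the genome that carry much of the level. Such an entry was counted where at least 100 of its 50-base words were shared with the gene and it lay more than 5000 bases away. The processed pseudogene entry Gm4735 held 264, 298 and 335 RPKM in tip and 203, 228 and 195 RPKM in stalk, so the Eno1 entry held only 18.3% of their combined level. For Pgk1 the share in its own entry was 12.9%, with Pgk1-rs7 holding most of the rest. It was 26.4% for Pgam1, 49.1% for Gpi1 and, among the citric acid cycle genes, 36.9% for Suclg2. Ldha kept 95.7% and Ldhb 89.7%. Gapdh, the step left out of the 17 genes, had 50 such entries, and its own entry held 0.511% of the combined level. Apart from such copies, exons of other genes on the same strand covered 20.6% of the exon bases of Pgls, 17.4% of Pfkfb2, 15.3% of Pkm and 10.2% of Pfkm. Antisense exons covered 17.9% of Rpe, 16.1% of Pdha1, 13.6% of G6pdx and 11.5% of Gpi1, so the values of these genes are uncertain to that extent.

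**Figure D4:**
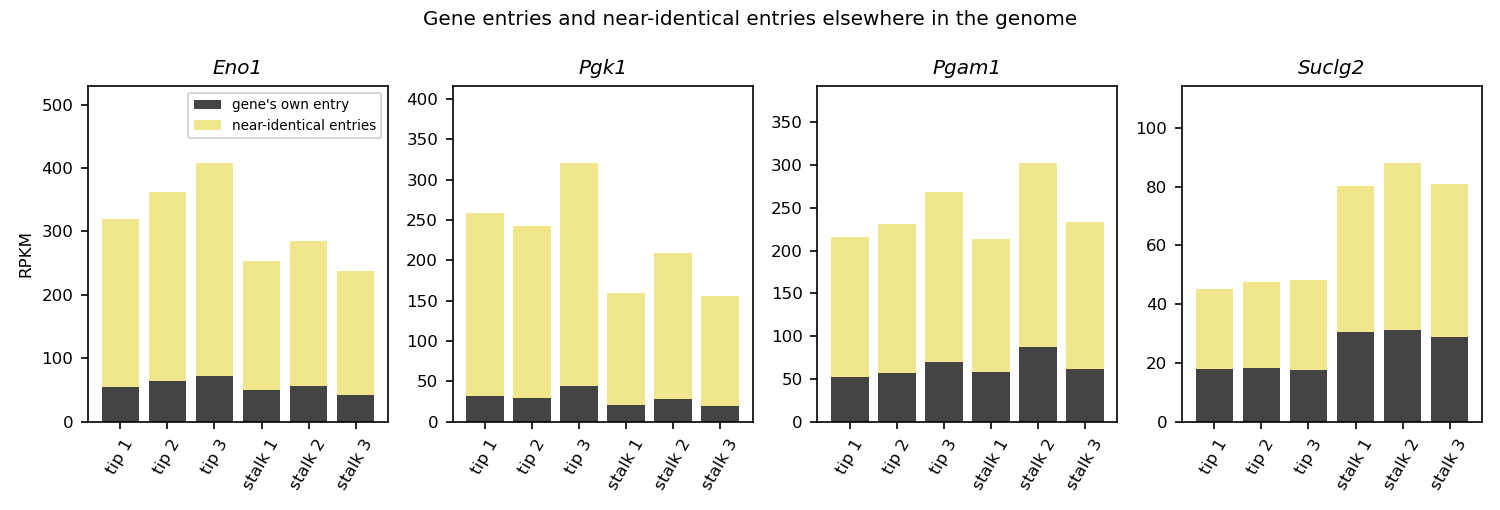
RPKM of the gene's own entry (dark) and of its near-identical entries elsewhere in the genome (light), stacked, in each library for Eno1, Pgk1, Pgam1 and Suclg2. The own entry is the smaller part in all 4 genes, 12.9% for Pgk1 to 36.9% for Suclg2 of the combined level, and the order of tip and stalk is alike in both parts for Pgk1 and Suclg2.

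When these entries were added to the member, a setting chosen after seeing the data, Eno1 passed the test toward tip, with 363 ± 44.3 RPKM there and 259 ± 23.6 RPKM in stalk (log2 fold change 0.48, limma adjusted p = 0.0103). Pgk1 differed by 0.65 (adjusted p = 0.00728), Pgam1 by -0.05 (adjusted p = 0.781) and Gpi1 by -0.25 (adjusted p = 0.183). The Eno2 share of the Eno1 and Eno2 sum, 2.52% to 5.41% in tip and 27.3% to 31.2% in stalk by the genes' own entries, was 0.448% to 1% and 6.33% to 8.29% with Gm4735 added. With Eno3, an enolase gene outside the set chosen after its values were seen, in the sum of own entries, the Eno2 share was 2.38% to 5.17% in tip and 25.4% to 29.1% in stalk. The glycolysis sum became 2275 ± 354 RPKM in tip against 2158 ± 367 RPKM in stalk, a stalk to tip ratio of 0.95, still with overlap. With Gapdh and its 50 entries in the sum, it was 4463 ± 456 and 3545 ± 493 RPKM, a ratio of 0.79, and stalk replicate 2 at 4114 RPKM still exceeded tip replicate 1 at 4072 RPKM. Reads that map to both places may be counted in each, so the sums can be too high.

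Genes of the bifunctional PFKFB enzymes, which make and break down the phosphofructokinase activator, were higher in stalk for 2 of the 3 tested. Pfkfb2 was at 3.99, 5.47 and 3.99 RPKM in tip and 11, 8.16 and 9.97 RPKM in stalk, with no overlap (log2 fold change -0.97, limma adjusted p = 0.0015). Pfkfb4 was at 1.54 ± 0.179 and 2.77 ± 0.469 RPKM (-0.57, limma adjusted p = 0.0192), a call lost without tip replicate 1 (adjusted p = 0.0723) or stalk replicate 3 (0.0667). With only the highest row of each symbol, Pfkfb4 differed by -0.29 (limma adjusted p = 0.546). Pfkfb3, the form with the strongest kinase activity, held most of the family's RPKM but varied within stalk, at 38.9, 16.2 and 17.5 RPKM against 11.4, 17.5 and 11.9 RPKM in tip. Stalk replicate 1 stood apart and the gene was not called (-0.70, limma adjusted p = 0.0978); without stalk replicate 1 the difference was -0.31. Pfkfb1 was the reverse of the others, at 1.48, 1.37 and 1.34 RPKM in tip and 0.16, 0.555 and 0.551 RPKM in stalk, and was too low to be tested.

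At the entry to the citric acid cycle, the 4 genes of the pyruvate dehydrogenase complex in the set were higher in stalk. Pdhx, which encodes a further structural subunit and was named after its values were seen, was at 10.2 ± 1.55 RPKM in tip against 10.8 ± 0.966 RPKM in stalk and was not called (-0.08, limma adjusted p = 0.665). Pdhb (chromosome 14, 8165996 to 8173025, minus strand), the beta subunit of the decarboxylating enzyme, was at 20.0, 20.7 and 24.5 RPKM in tip and 35.5, 41.6 and 35.3 RPKM in stalk. Even the lowest stalk library was well above the highest tip library (log2 fold change -0.76, SE 0.12, limma adjusted p = 0.000953). The alpha subunit gene Pdha1, the most abundant, differed least, at 68.8 ± 2.36 and 89.2 ± 3.57 RPKM (-0.37, limma adjusted p = 0.00702). The acetyltransferase gene Dlat differed by -0.68 and Dld, whose product also serves the oxoglutarate complex, by -0.50. Summed, the 4 genes stood at 141 ± 5.41 RPKM in tip against 202 ± 12.8 RPKM in stalk, a ratio of 1.43.

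The kinases that inactivate this complex were higher in stalk too, with 1 exception. Pdk2 (chromosome 11, 95026258 to 95041354, minus strand) was at 11.7, 11.3 and 13.8 RPKM in tip and 32.5, 43.5 and 40.5 RPKM in stalk. Stalk was 3.17-fold higher by the ratio of means, with no overlap (log2 fold change -1.58, SE 0.14, limma adjusted p = 4.97e-05). Pdk4, known as a fasting-induced form, was at 2.58 ± 0.489 and 6.28 ± 1.39 RPKM (-1.01, limma adjusted p = 0.00223), and Pdk1, a known hypoxia target, at 18.9 ± 4.99 and 34.7 ± 5.13 RPKM (-0.86, limma adjusted p = 0.00522). Pdk3 was at 17.1, 16.4 and 18.1 RPKM in tip and 14.5, 14.6 and 13.6 RPKM in stalk. Its tip libraries were all higher, yet the gene missed the threshold (0.26, SE 0.10, limma adjusted p = 0.0606). Pdk3 held 30.7% to 36.5% of the kinases' RPKM in tip and 14.1% to 17.3% in stalk, and Pdk2 held 23.4% to 24.9% and 38.8% to 42.8%. The kinase sum was 51.0 ± 6.96 RPKM in tip against 94.0 ± 9.98 RPKM in stalk, a ratio of 1.85.

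The citric acid cycle was the most uniform route, though its 12 genes hold no succinate dehydrogenase gene and so are not the whole cycle. Of its 12 genes 9 were higher in stalk and 0 higher in tip by limma, and 0 toward tip had an unadjusted p under 0.05. Among all genes tested, 22.5% were called higher in stalk and 26.1% higher in tip. The fitted difference lay toward stalk in 12 of 12 cycle genes, against 47.0% of all genes. The median log2 fold change of the cycle genes was -0.41, with a range from -0.72 to -0.07. No member differed as much as the widest glycolysis genes.

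Citrate synthase, which opens the cycle, was at 60.5, 61.9 and 58.2 RPKM in tip and 76.3, 72.9 and 75.7 RPKM in stalk for Cs (chromosome 10, 128337734 to 128362479, plus strand). The spread within each group was small and the groups did not overlap (log2 fold change -0.31, SE 0.08, limma adjusted p = 0.0134), though without tip replicate 3 the adjusted p was 0.0601. Idh2 (chromosome 7, 80094846 to 80115392, minus strand), the mitochondrial NADP-dependent isocitrate dehydrogenase, was the most abundant of the cycle, at 114, 112 and 118 RPKM in tip and 166, 191 and 188 RPKM in stalk. Stalk was higher throughout (-0.66, SE 0.09, limma adjusted p = 0.000555). Among the NAD-dependent subunits, Idh3b was higher in stalk at 47.9 ± 1.37 and 69.3 ± 6.95 RPKM (-0.52, limma adjusted p = 0.00298). The catalytic subunit gene Idh3a (-0.27, adjusted p = 0.127) and the regulatory subunit gene Idh3g (-0.07, adjusted p = 0.603) were not called, so the 3 subunits of this 1 enzyme were not all called.

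For the oxoglutarate dehydrogenase complex, Ogdh was at 28.4, 26.9 and 25.8 RPKM in tip and 41.3, 39.3 and 39.0 RPKM in stalk, clearly apart (log2 fold change -0.54, SE 0.09, limma adjusted p = 0.00135). Its partner Dlst, the succinyltransferase, was at 30.3 ± 2.73 and 32.8 ± 5.74 RPKM and was not called, and its difference was 0.01 without stalk replicate 3. Suclg2 (chromosome 6, 95473009 to 95718800, minus strand), the GTP-forming beta subunit of succinate-CoA ligase, showed the widest difference of the cycle, at 17.8, 18.4 and 17.5 RPKM in tip and 30.4, 31.1 and 28.7 RPKM in stalk. Each group was tight (-0.72, SE 0.09, limma adjusted p = 0.000348), and with the near-identical entry Gm15163 added the difference was -0.81. The ATP-forming beta subunit gene Sucla2 differed by -0.38 (limma adjusted p = 0.0327), a call lost without tip replicate 2 (adjusted p = 0.0969), tip replicate 3 (0.065), stalk replicate 1 (0.0503) or stalk replicate 2 (0.101). The shared alpha subunit gene Suclg1 differed by -0.44. Suclg2 held 35.9% to 41.2% of the beta subunits' RPKM in tip and 41.5% to 45.4% in stalk by own entries, and 58.7% to 64.5% and 66.7% to 70.1% with Gm15163 added.

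Fumarase (Fh1) was at 28.0 ± 2.13 RPKM in tip against 36.1 ± 1.67 RPKM in stalk (-0.36, limma adjusted p = 0.016), a call lost without tip replicate 2 (adjusted p = 0.0518) or stalk replicate 3 (0.0529). Mdh2, the mitochondrial malate dehydrogenase that closes the cycle, was at 105, 114 and 110.2 RPKM in tip and 143, 155 and 148 RPKM in stalk. Its groups were far apart relative to their spread (-0.44, SE 0.08, limma adjusted p = 0.00326). Without tip replicate 3 and stalk replicate 2 together, 5 of the 12 cycle genes were called (Idh2, Idh3b, Ogdh, Suclg2 and Mdh2), and Idh3g differed by 0.02. Calls toward stalk over all genes also fell, from 2815 of 12532 tested in the main fit to 1932 of 12480. The cycle genes that lost their call still differed toward stalk, Cs by -0.31, Sucla2 by -0.31, Suclg1 by -0.35 and Fh1 by -0.39.

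**Figure D5:**
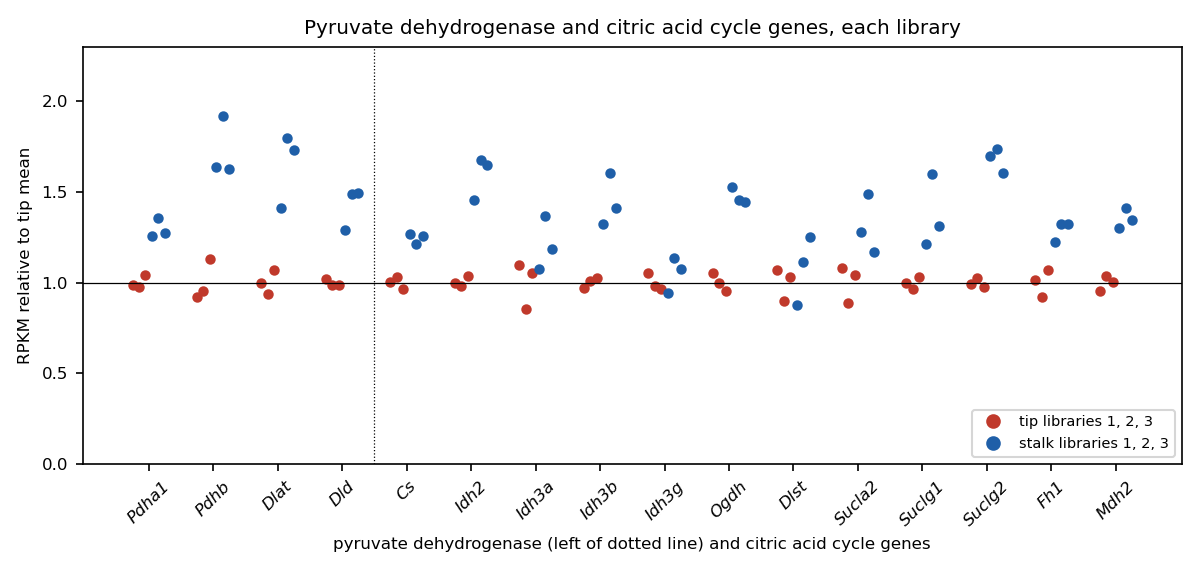
RPKM of each pyruvate dehydrogenase and citric acid cycle gene in every library, relative to the mean of the 3 tip libraries, which is set to 1. Red points are tip and blue points stalk libraries 1, 2 and 3 from left to right. Stalk points lie above all tip points in 13 of the 16 genes, and overlap them in Idh3a, Idh3g and Dlst. Among all genes tested, every stalk library lay above every tip library in 26.5%.

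The pentose phosphate genes split within both arms of the pathway. In the oxidative arm, which yields NADPH, the first enzyme's gene G6pdx had nearly equal means, at 13.5 ± 1.22 RPKM in tip against 13.7 ± 1.68 RPKM in stalk (log2 fold change -0.02, limma adjusted p = 0.923), and its sign turned without tip replicate 1 (0.01), tip replicate 2 (0.03) or stalk replicate 3 (0.06). Pgls, the lactonase of the next step, was at 59.2, 62.5 and 57.5 RPKM in tip and 37.2, 48.7 and 47.2 RPKM in stalk. Tip was higher in every library (0.43, SE 0.12, limma adjusted p = 0.0166). Pgd (chromosome 4, 149149991 to 149166771, minus strand), the dehydrogenase that follows, went the other way at 38.2, 33.0 and 37.4 RPKM in tip and 48.6, 59.1 and 51.8 RPKM in stalk. Here stalk was higher in every library (-0.54, SE 0.11, limma adjusted p = 0.00389).

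In the non-oxidative arm, which moves carbon between ribose phosphate and glycolysis, the transketolase and transaldolase genes were opposed. Tkt (chromosome 14, 30548359 to 30574720, plus strand) was at 101, 105 and 105 RPKM in tip and 65.1, 85.2 and 81.5 RPKM in stalk. The tip libraries were nearly equal and all higher (log2 fold change 0.43, SE 0.11, limma adjusted p = 0.015); without tip replicate 3 the adjusted p was 0.0517. Taldo1 (chromosome 7, 141392199 to 141402968, plus strand) was at 107, 101 and 105 RPKM in tip and 133, 144 and 138 RPKM in stalk. At similar tip levels, the transaldolase gene was thus higher in stalk (-0.40, SE 0.08, limma adjusted p = 0.00456) where the transketolase gene was lower. Rpia, the ribose 5-phosphate isomerase gene, was at 12 ± 0.679 and 9.36 ± 1.11 RPKM (0.33, limma adjusted p = 0.049), and lost its call without tip replicate 1 (adjusted p = 0.149), 2 (0.0619) or 3 (0.127), or stalk replicate 1 (0.106) or 3 (0.14). Rpe, the epimerase gene, was not called (-0.16, limma adjusted p = 0.221). Without tip replicate 3, only Pgls of this route was called higher in tip, 1 gene in place of 3.

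Idh1 and Mdh1, whose products are the cytosolic partners of Idh2 and Mdh2, were higher in stalk by more than those partners in value, and the difference within each pair was not tested. Idh1 (chromosome 1, 65158616 to 65186500, minus strand), which makes NADPH in the cytosol, was at 15.2, 14.1 and 15.7 RPKM in tip and 28.1, 38.8 and 34.8 RPKM in stalk. Stalk was 2.26-fold higher by the ratio of means (log2 fold change -1.11, SE 0.13, limma adjusted p = 0.000236), where Idh2 was 1.59-fold higher. Mdh1 (chromosome 11, 21556787 to 21572367, minus strand), of the malate-aspartate shuttle, was at 68.4, 67.5 and 79.2 RPKM in tip and 126, 146 and 126 RPKM in stalk. Its difference was -0.88 (SE 0.11, limma adjusted p = 0.000258), beside -0.44 for Mdh2. The cytosolic share was 11.2% to 11.8% in tip and 14.5% to 16.9% in stalk for Idh1 of the Idh1 and Idh2 sum, and 37.1% to 41.8% and 46.0% to 48.4% for Mdh1 of the Mdh1 and Mdh2 sum.

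Both genes of the set that take citrate onward in the cytosol were higher in tip. Acly, whose enzyme cleaves citrate into the acetyl-CoA used for lipid synthesis, was at 49.9, 51.6 and 45.4 RPKM in tip and 36.7, 34.5 and 40.1 RPKM in stalk, with no overlap (log2 fold change 0.39, SE 0.10, limma adjusted p = 0.0115). With only the highest row of each symbol, Acly differed by 0.82, and without tip replicate 3 and stalk replicate 2 together its adjusted p was 0.0573. Aco1, the cytosolic aconitase and iron sensor, was at 33.2 ± 2.76 and 25.4 ± 1.24 RPKM (0.37, limma adjusted p = 0.0152), a call lost without tip replicate 1 (adjusted p = 0.056) or 3 (0.0669). The NADP-dependent malic enzyme gene Me1 was higher in stalk at 2.26 ± 0.275 and 4.21 ± 0.478 RPKM (-0.67, limma adjusted p = 0.00586). Pcx, which refills the cycle from pyruvate, was low and not called at 4.86 ± 0.358 and 4.13 ± 0.667 RPKM.

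Other genes of these routes were read from a separate list of 43, of which 33 were tested. Of these 13 were higher in stalk and 7 higher in tip, and their median difference was -0.33. The share called was 60.6%, beside 48.6% of all genes tested, 22.5% higher in stalk and 26.1% higher in tip. Among the widest toward stalk were Mpc2, a subunit of the mitochondrial pyruvate carrier, at 24.8 ± 3.68 and 71.9 ± 9.89 RPKM (-1.50), the malic enzyme gene Me3 (-1.16), the phosphoglucomutase gene Pgm1 (-0.89) and the aspartate aminotransferase gene Got1 (-0.87). Toward tip they were the ribose phosphate activating genes Prps1 (0.99) and Prps2 (0.67), Gapdh (0.98), the mitochondrial malic enzyme gene Me2 (0.73) and Ogdhl (0.70), a relative of Ogdh. The Gapdh value is from its own entry, which held 0.511% of the combined level with its near-identical entries. With only the highest row of each symbol, Gapdh differed by 0.68.

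Regulators and targets of the hypoxia response, which controls several glycolysis genes in other settings, were called about as often as all genes. Of 19 tested genes 8 were higher in stalk, 1 was higher in tip and 10 were not called, and the median difference was -0.41. The 47.4% called was near the 48.6% of all genes, where 22.5% were higher in stalk and 26.1% higher in tip. Hif3a was at 3.86 ± 0.36 RPKM in tip against 21.4 ± 2.69 RPKM in stalk (log2 fold change -2.20), followed by Ndrg1 (-1.92), the prolyl hydroxylase gene Egln3 (-1.53), the peptide hormone gene Adm (-1.50) and Epas1 (-1.33), which encodes HIF-2 alpha. The collagen prolyl hydroxylase gene P4ha2 was higher in tip (0.98). Without tip replicate 3 and stalk replicate 2 together, Adm differed by -1.4 and lost its call (limma adjusted p = 0.0771).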

How the data were processed

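Messenger RNA of 3 tip and 3 stalk libraries was compared. The authors deposited RPKM values in 1 table. Tools named in the submitters' processing notes are TopHat2, Partek and bcl2fastq 2.17, with build mm10. For the annotation, the quantification settings and strand use, nothing is given in the sources used here. Extraction used an RNeasy micro kit and a Kapa stranded mRNA kit, per the labels' protocols. Depth was unknown, so no counting interval was given. The sum of RPKM was 345123 to 366035 per library, and 12194 to 12472 symbols reached 1 RPKM.

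Of 93615 rows, 24545 held question marks in all 6 value columns and were left out. RPKM was summed over the remaining rows of each symbol. Genes averaging 1 RPKM or more were tested by limma 3.58.1 (R 4.3.3) on log2(RPKM + 1), with pseudocount 1, a mean-variance trend, two-sided tests and Benjamini-Hochberg adjustment over all genes at 0.05. This scale understates the change of low genes. The fit was also run on simulated data with 200 changed genes and independent noise. Far more genes were called here (48.6%), so that run does not test these calls. Isozyme shares and route sums were compared as RPKM, a per-length scale, without a test.

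Coordinates are from GENCODE M21 on the same build; Aldoa has 2 loci of its name there and is given none. Near-identical entries were found by shared 50-base words of annotated transcripts. Promoter windows came from RefSeq (GRCm38.p6), where 53 of the 54 genes matched. Reads of overlapping, antisense or near-identical genes could not be told apart where strand use is not given.

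The members and lists were chosen with earlier results of these data known. All 54 members may be named; of the 2 further lists, up to 5 called genes with the largest change toward each side are. Of those, 1 gene the rule takes is not reported here. Alternatives were other pseudocounts, filters, scaling, row handling and variance models, a replicate block, and leaving out libraries; leaving out tip replicate 3 with stalk replicate 2 and adding near-identical entries were chosen after seeing the data.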

Additional observations from a re-analysis of the deposited data

How the results depend on the processing

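Of the 38 enzymes called, 23 kept their call under each of the 16 alternatives in which they were tested, and 15 lost it under at least 1. Aldoc and Pdk4, counted among the 23, were too low to be tested with a minimum mean of 5 RPKM. Leaving out 1 library at a time, the members higher in tip numbered 4 to 11 (4 without tip replicate 3), those higher in stalk 27 to 28, the glycolysis genes higher in tip 2 to 6 (6 without stalk replicate 2) the pentose phosphate genes higher in tip 1 to 3 (1 without tip replicate 3) and the citric acid cycle genes higher in stalk 7 to 9. Over all genes, these single omissions gave 2511 to 3077 calls toward tip and 2256 to 2861 toward stalk, with 2541 and 2438 without tip replicate 3. With a minimum mean of 5 RPKM, fewer genes were tested and 4 glycolysis genes were higher in stalk. Without tip replicate 3 and stalk replicate 2 together, 2188 of all 12480 genes tested were called toward tip and 1932 toward stalk. In that setting 5 glycolysis genes were higher in tip, and 1 pentose phosphate gene was higher in tip and 1 in stalk. The citric acid cycle had 5 genes higher in stalk, and Idh3g changed sign to 0.02. Other signs that turned belonged to genes not called, whose log2 fold changes ranged over the single omissions from -0.03 to 0.36 for Pfkl, -0.29 to 0.09 for Tpi1, -0.10 to 0.06 for G6pdx and -0.24 to 0.01 for Dlst. Idh3g kept its sign over them, at -0.14 to -0.01. The cause was not tested. Libraries with the same number did not deviate together (correlations -0.303, -0.335 and 0.0933), and no library correlated best with that of its own number. The highest values were 0.559 for tip 2 with stalk 1, 0.397 for tip 3 with stalk 2 and 0.334 for tip 1 with stalk 3. With 3 libraries in each group, such values cannot show whether any libraries share an origin, and this was not tested. With a replicate block, 2716 genes were called toward tip and 2380 toward stalk, 2 and 6 for glycolysis, 2 and 2 for pentose phosphate and 0 and 6 for the citric acid cycle. Under it Pfkp, Pgk1, Rpia, Cs, Sucla2 and Fh1 were not called. Depth is unknown and limits the precision of low genes such as Pfkfb1, Pgam2 and Aldoc to an unknown degree.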
